A study of Sus scrofa with 48 samples.

Results

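Circular RNAs (circRNAs) of boar seminal plasma extracellular vesicles (SPEVs) often share a back-splice site, and mid-span circRNAs at such shared sites numbered 1025 of the 17379 circRNAs in the deposited table. They were selected on 3 properties of the table: reads in 2 to 11 of the 24 libraries, a span between start and end from 1000 bp to just under 50000 bp, and a start or an end that occurs in at least 4 circRNAs of the same chromosome. Such a start or end is called a hub here. The number of libraries, the span and the sharing of a site therefore describe the choice and were not tested. The vesicles came from semen plasma of Yorkshire boars (large white in the study's text) aged 14 to 36 months, with 1 long RNA library per boar. The high motility group (H) had 12 boars with a mean total sperm motility of 0.94, and the low motility group (L) had 12 boars with a mean of 0.40. The question behind the comparison of L with H was whether vesicle circRNAs differ with sperm motility.

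A circRNA forms when the spliceosome joins the donor at the end of an exon to the acceptor at the start of the same or an upstream exon, a reaction called back-splicing. Where 1 acceptor is joined to several donors, or 1 donor to several acceptors, the gene yields several circular isoforms that share a site but hold different exons, which is known as alternative back-splicing. The ring has no free end and resists exonucleases, and circRNAs have been found in many kinds of extracellular vesicle.

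The 24 libraries held 128644 (L1) to 610615 (H3) back-splice junction reads. Values below are reads, or reads per 1000000 junction reads of the library (RPM). The smallest value above 0 in the table was 2 reads, so an undetected circRNA may have had 1 read. The level of 3 reads, used as a floor, corresponded to 4.91 RPM in the deepest library and 23.3 RPM in the shallowest, and covers counting error only. Where a circRNA was detected, members had a median of 74 reads with quartiles of 40 and 131 and a range of 2 to 1334. The 5744 circRNAs with the same limits on libraries and span but no hub had a median of 67 reads where detected.

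The members lay at 456 hubs. A start hub alone placed 498 members, an end hub alone placed 489, and 38 members had hubs at both ends. On the strand of the host gene, 315 hubs were acceptors and 140 were donors, and 1 hub on an unplaced scaffold had no annotated strand. These hubs together held 2004 circRNAs, and the 979 that were not members had reads in 12 or more libraries (237), in 1 library (606), or in 2 to 11 libraries with a span outside the limits (136). Most hubs (305) had 4 circRNAs, and the largest number was 10, at an acceptor of SMARCC1, a core subunit of the SWI/SNF chromatin remodelling complex, and at an acceptor of TLK1, a kinase of chromatin assembly. Members per hub had a median of 2 and a maximum of 6, and 111 hubs had 1 member. For 20 members another circRNA of the table lay within 10 bp at both ends, so that their reads could have been divided between near-identical junctions.

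Members were sparse by construction. Reads in 2 libraries were found for 259 members and reads in 11 libraries for 52. On the 2 sides of the upper limit, the 52 members in 11 libraries had a median mean level of 168 RPM and the 23 circRNAs at hubs in 12 libraries had 169 RPM. At the lower limit, the 259 members in 2 libraries had a median of 17.2 RPM and the 548 circRNAs in 1 library had 7.04 RPM. For site sharing, the 613 members whose most shared site was in 4 rows had a median of 39.4 RPM, and the 1363 circRNAs whose most shared site was in 3 rows had 37.3 RPM. The shortest member spanned 1023 bp in FCHSD2, an endocytic membrane-bending protein, and the longest spanned 49860 bp in LARP4, an RNA-binding protein. The nearest circRNAs outside the span limits were 994 bp in ANKHD1 and 50732 bp in STRN3.

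Several features were read against the annotation of the Sscrofa11.1 genome. Of the members, 968 were exonic, 41 intronic and 12 intergenic, and 4 lay on an unplaced scaffold. Both ends fell on annotated exon edges in 92.3% of members, against 89.3% of the circRNAs without a hub and 83.2% of the whole table. All 1021 members on chromosomes had AG before the acceptor and GT after the donor, a signal that back-splice callers look for. Members held a median of 5 annotated exons and 632 nt after splicing, while circRNAs without a hub held 3 exons and 441 nt. Rings of 1 exon, which the limit on span makes rare, numbered 3 (0.317% of members with an exon model), and 35 (0.683%) among circRNAs without a hub.

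Hub acceptors lay closer to the start of the gene than acceptors used in 1 circRNA. Of 308 hub acceptors on exon edges, 93 were the acceptor of exon 2 (30.2%), while exon 2 supplied 13.7% of 7843 acceptors seen in 1 circRNA. Exon 2 is the first exon with an acceptor, so more donors lie downstream of it than of any later exon. Whether this bears on the share of exon 2 was not tested. The intron upstream of a hub acceptor had a median length of 9005 bp, against 4440 bp (1971 to 11584 bp, quartiles) for acceptors seen in 1 circRNA. The intron downstream of the 132 hub donors on exon edges had a median of 7906 bp, against 3926 bp for 8930 donors seen in 1 circRNA. The sites seen in 1 circRNA had no limit on span or libraries, so they differ from the hubs in these as well. Against the circRNAs with the same limits but no hub, the differences were smaller. Exon 2 gave the acceptor of 23.0% of members with an exon model and 18.7% of those circRNAs. The upstream intron had a median of 7755 bp in members and 5846 bp in those circRNAs, and the downstream intron 4870 and 5419 bp. Sites and circRNAs share host genes, and no test was made of these values.

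The members came from 359 host genes, of which 34 had 5 or more members. SMARCC1 had the most, with 17 of its 44 circRNAs. ATAD2B, a bromodomain ATPase, had 12 of 25 and PRPSAP2, a regulatory partner of phosphoribosyl pyrophosphate synthetase, had 10 of 21. ANKRD12, CHD2, PDCD4, UBAP2 and USP47 had 9 each. Chromosome 3 held 95 members and chromosome 13 held 93, while chromosome X held 11.

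Isoform dominance was measured as the share of a hub's mean RPM carried by its leading circRNA. The median over the 456 hubs was 55.0%, with quartiles of 45.4% and 69.7%, and the next circRNA carried a median of 24.6%. The leading circRNA carried at least 50% at 288 hubs and at least 90% at 11. The lowest share was 22.0% at an acceptor of KDM5B, a histone H3K4 demethylase, where 5 circRNAs shared the reads. The highest was 97.0% at an acceptor of RNF138, a ubiquitin ligase of DNA repair, where 1 circRNA led in 21 of 22 libraries.

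The kinds of leader below are set by the number of libraries and the span, which were part of the choice, so their values are a description. A member led 252 hubs, where it carried a median of 51.0% and was also the top circRNA in a median of 50% of the libraries with reads at that hub. A circRNA detected in 12 or more libraries led 164 hubs, where it carried a median of 67.9% and was the top circRNA in a median of 75% of libraries. A circRNA in 2 to 11 libraries with a span outside the limits led 25 hubs, with a median share of 50.6%. At 15 hubs the leader had reads in 1 library only, with a median share of 41.7%. The same circRNA led in every library with reads at 12 of the 456 hubs. Members made up 28.3% of the mean RPM over all these hubs. Leaders held a median of 4 exons and spanned 11878 bp, and the other circRNAs at the hubs held 5 exons and spanned 18610 bp. The shortest circRNA of a hub led at 136 hubs and the longest at 58.

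The hub with the most reads among those with 6 members was the acceptor of exon 5 of SEC24A (chromosome 2, position 136907206, plus strand), a COPII coat protein that selects cargo for export from the endoplasmic reticulum. It joined 9 donors, in exons 6, 8, 9, 10, 11, 13, 16, 17 and 18. Its leader, the ring of exons 5 and 6, spanned 702 bp and so was not a member; it had 6613 reads in 20 libraries and carried 55.1% of the hub. The ring that ended in exon 11 had 2256 reads in 15 libraries. The 6 members together carried 24% of the hub, and the most abundant of them, which ended in exon 10, had 7 libraries with 62 (L6) to 635 (H12) reads. It was absent from 10 H and 7 L libraries, so that the groups overlapped at 0. The member that ended in exon 9 was read in L3 (302 reads), L5 (180) and L12 (73), and the member that ended in exon 8 was read in 4 L libraries and no H library. Reads in L libraries alone were found for 151 members (14.7%), and in H libraries alone for 48 (4.68%). Among all 8010 circRNAs in 2 to 11 libraries these shares were 19.5% and 6.55%.
The junction sequences of the SEC24A hub are given because they show the shared and the changing part of each ring. They were read from the plus strand of Sscrofa11.1, with the last 15 bases of the donor exon in lower case and the first 15 bases after the shared acceptor in capitals.
SEC24A chr2:136907206-136907907: caactgtaacccagaCAACCCCACAGCCTA
SEC24A chr2:136907206-136920524: tttcagatattgaagCAACCCCACAGCCTA
SEC24A chr2:136907206-136916014: agacaatctggatttCAACCCCACAGCCTA
SEC24A chr2:136907206-136914107: ccttcagaatacatgCAACCCCACAGCCTA
SEC24A chr2:136907206-136911528: accgagtcaatgatgCAACCCCACAGCCTA
SEC24A chr2:136907206-136927606: aggtcatctgctaagCAACCCCACAGCCTA
SEC24A chr2:136907206-136933834: atacatccagcaaagCAACCCCACAGCCTA
SEC24A chr2:136907206-136940543: gctctccttaaacagCAACCCCACAGCCTA
SEC24A chr2:136907206-136937721: tattagccaacatggCAACCCCACAGCCTA
The first 2 lines are circRNAs that were not members, and the next 6 are members that ended in exons 10, 9, 8, 13, 16 and 18. The last line is the third that was not a member, which ended in exon 17 and had 118 reads in H12 alone.

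HEATR5A, a HEAT repeat protein, had a hub of the same form at the acceptor of exon 2 (chromosome 7, position 68160992, plus strand). Its leader, exons 2 to 6, had 4184 reads in 18 libraries and carried 61.5% of the hub. The leader's share was 75.5% of the mean RPM in H and 51.9% in L. The 6 members carried 37.2%, and the largest of them by mean RPM had 497 reads in L6 and 18 in L8 and none elsewhere. A member of 11 exons was read in H12 (210 reads) and in 6 L libraries with 12 to 95 reads. The hub sum was 0 to 3105 RPM in H (median 484) and 0 to 3727 RPM in L (median 726), with overlapping groups.

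At 6 of the 8 hubs with the most members, a member led. MYO9A, an unconventional myosin, had a hub at the acceptor of exon 2 (chromosome 1, position 169559446, minus strand). The leader, exons 2 to 5, had 1354 reads in 11 libraries, from 9 (H10) to 426 (H11), and carried 34.3%. It was top in 8 of the 19 libraries with reads at the hub. In H it carried 44.0% of the hub, and in L a longer member of 7 exons was first with 29.2%, and the leader's share was 17.5%. The order in L came from L4: without it the leader was first in L as well, with 24.5%.

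CCDC18, a coiled-coil protein, had the most even of the 6-member hubs, at the acceptor of exon 6 (chromosome 4, position 123998502, minus strand). Its 6 members carried 98.0% of the mean RPM. The leader, of 7 exons, had 1011 reads in 8 libraries and carried 26.6%. A member of 13 exons carried 25.9%, of which H1 alone supplied 603 of 680 reads, and it led the hub in the H mean with 39.2%. Without H1 its share of H was 3.71%, and the ring of 7 exons led H with 30.3%. Without H4, H7, H8, H11, L1, L8, L9 or L10 the ring of 13 exons was first over all libraries, with 26.4 to 30.0%. A member of 3 exons was read in H8 (587 reads), L2 (82) and L8 (84). H11 held 4 of these rings together, with 246, 267, 104 and 200 reads.

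ALMS1, a basal body protein, had a hub at the acceptor of exon 12 (chromosome 3, position 69317475, minus strand), where 5 members and 2 other circRNAs gave 2741 reads. The member of 5 exons carried 30.2%, that of 4 exons 27.0% and that of 6 exons 21.9%. The leader by mean RPM was top in 3 of 16 libraries, fewer than the 5 of the member in second place, which was first without H2 (33.5%) or H5 (30.3%). Its hub sum was 0 to 1897 RPM in H (median 639) and 0 to 675 RPM in L (median 231). The groups overlapped, and the test of the sum, described with the other sums below, gave P = 0.330.

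GFPT1, the rate-limiting enzyme of the hexosamine pathway, had a hub made of members alone, at the acceptor of exon 4 (chromosome 3, position 73046115, plus strand). The ring of exons 4 to 8 had 1343 reads in 8 libraries and carried 43.4%, and the ring of exons 4 to 12 had 871 reads in 5 libraries and carried 42.4%. Of these 871 reads, 556 were from H1. The 4 to 8 ring held 72.5% of the hub in L, where it was read in 5 libraries at 165 to 274 reads, and 20.6% in H, where it was read in 3 libraries at 26 to 123 reads. Its share of H was 48.1% without H1, where it led, and 9.50% without H5. Without H5, H11, L3, L8, L9, L10 or L12 the 4 to 12 ring was first over all libraries, with 43.0 to 47.3%. The other 3 members, which ended in exons 11, 13 and 14, had 2 or 3 libraries each. The junctions of all 5 members follow to show a hub in which each ring has a low number of libraries. Capitals mark the first 15 bases after the shared acceptor, on the plus strand of Sscrofa11.1.
GFPT1 chr3:73046115-73053892: tactctacagaacagAACAACAAGATATGG
GFPT1 chr3:73046115-73062667: ttgatgattacactgAACAACAAGATATGG
GFPT1 chr3:73046115-73061319: agcagatcatgaaggAACAACAAGATATGG
GFPT1 chr3:73046115-73067286: catgctggtgtagcgAACAACAAGATATGG
GFPT1 chr3:73046115-73069869: tcattagtcaatcagAACAACAAGATATGG

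SMARCC1 had a 5-member hub at the acceptor of exon 13 (chromosome 13, position 30512528, minus strand). The ring of exons 13 to 15 had 795 reads in 6 libraries and carried 41.9% of the hub, in the H mean as in the L mean. A ring of 10 exons had 523 reads in 5 libraries, and H8 was the highest library of both rings with 356 and 252 reads. A ring of 7 exons was read only in L8 (79), L9 (76) and L12 (43). IQUB, a protein of the radial spokes of the sperm flagellum, had a 5-member hub at the acceptor of exon 2 (chromosome 18, position 23909897, plus strand). The ring of exons 2 to 4 had 791 reads in 6 libraries and carried 48.5%, with 345 reads in H6 as its highest value. A ring of 6 exons of IQUB was read in 4 L libraries, at 15 to 57 reads, and in no H library. Rings read in L libraries alone were 14.7% of members and 19.5% of all circRNAs in 2 to 11 libraries.

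The most abundant member by mean RPM was a ring of 5 exons of RB1CC1, a scaffold of autophagy initiation, with 0 to 1093 reads in H and 0 to 172 reads in L, and medians of 0 in both. Its mean of 349 RPM rested on H1, which held 1093 of its 2119 reads. ARHGAP18 followed with 0 to 840 reads in H (median 85) and 0 to 243 reads in L (median 0). H1 was again its highest library, with 840 of its 2034 reads. Its mean of 344 RPM and its rank rested on H1 as well. NCOA2, a nuclear receptor coactivator, was read in 11 libraries at 89 to 229 reads, 6 in H and 5 in L, with no library far above the others. PICALM, a clathrin assembly protein, reached 563 reads in H4 and 344 in L12, and PRRC2B, a proline-rich RNA-associated protein, reached 331 in H1 and 227 in L9. The uncharacterised gene LOC110256438 had the third highest level, with 2 H libraries of 301 and 415 reads and 8 L libraries of 24 to 334 reads. At these levels a member was either absent or well above the floor, and the groups overlapped at 0 for all 6.

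L libraries held more members than H libraries on average, as they did for circRNAs as a whole. In H, 70 to 237 members were detected per library (median 153, mean 161 ± 49.0 SD, n = 12), and in L 99 to 523 (median 204.5, mean 239 ± 132 SD, n = 12). L12 (523), L11 (366) and L8 (404) stood apart from the other 9 L libraries (99 to 283), 7 of which lay within the H range. The difference of L minus H was 77.75 members, and it was 13.8 members when these 3 libraries, which also held the most circRNAs, were left out, a choice made after seeing the data. All circRNAs detected numbered 1967 ± 541 per library in H and 2767 ± 1356 in L, which did not pass a two-sided permutation test (p = 0.0662). Junction reads did not follow the groups, with 337508 ± 153879 in H and 333002 ± 149917 in L. More vesicles that carry a circRNA and more copies per vesicle cannot be told apart in such libraries.

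Relative to each library's own content, the members took a steady share. They received 4.43 to 7.89% of junction reads in H (mean 6.23 ± 1.11 SD, n = 12) and 5.32 to 6.81% in L (mean 6.05 ± 0.487 SD, n = 12). Of the circRNAs detected in a library, members were 7.07 to 9.06% in H (mean 8.16 ± 0.692 SD) and 6.89 to 9.49% in L (mean 8.43 ± 0.729 SD). The L range lay inside the H range for reads, and the ranges overlapped for detection. Both differences between group means were smaller than the SD within a group.

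Averaged over the hubs with reads in a library, the top circRNA carried 84.7 to 94.4% of the hub's reads in H libraries (mean 87.9 ± 2.66 SD, n = 12) and 74.6 to 90.9% in L libraries (mean 84.2 ± 5.02 SD, n = 12). A hub had a single circRNA detected in 54.7 to 78.4% of cases in H (mean 63.2 ± 6.68 SD) and in 26.5 to 72.7% in L (mean 53.6 ± 13.7 SD). The lowest values were those of L12, L11 and L8, the libraries with the most circRNAs, and H1, with the fewest circRNAs (956), had the highest. L minus H was -3.77 percentage points for the top share and -1.47 without these 3 L libraries, and -9.58 and -3.26 points for hubs with a single circRNA. A hub with a single circRNA counts as 100% in the top share, and members have few libraries by choice. Over hubs with at least 2 circRNAs detected in the library, the top circRNA carried 64.1 to 74.1% in H (mean 67.5 ± 2.76 SD) and 64.8 to 68.9% in L (mean 66.1 ± 1.22 SD). L minus H was then -1.38 points, -1.08 without the 3 L libraries and -0.775 without H1, and this limit on hubs was set after seeing the data. No p is given for these values because they are sums over members chosen with results known.

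Of 402 hubs with reads in at least 3 libraries of each group, 245 (60.9%) were led by the same circRNA in the H mean and the L mean. SEC24A and HEATR5A were among them whichever library was left out. SMARCC1 was among them with all libraries, but another member led H without H8 (34.7%) or L without L2 (38.5%). IQUB was too, but another member led H without H6 (49.5%) or L without L1 (31.1%). MYO9A, CCDC18 and GFPT1 had different leaders, and the same leader without L4, H1 and H1 in that order. ALMS1 had different leaders in every case, but which member led changed in H without H2 (35.0%) or H5 (30.2%) and in L without L6 (35.9%) or L9 (29.2%). No test was made of the leaders.

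Co-detection was measured as the Jaccard index, the number of libraries with both circRNAs divided by the number with either. The 517 pairs of members that shared a start had a median index of 0.125, and the 474 pairs that shared an end had 0.143. The 545 pairs in the same host gene without a common site had 0.143, and the 492238 pairs on different chromosomes had 0.125. Members at a shared site were thus found in the same libraries about as often as members on different chromosomes. No library held both circRNAs in 32.3% of pairs with a common start, 30.6% with a common end and 34.4% on different chromosomes. Among members in 5 to 11 libraries the medians were 0.231 (87 pairs, common start), 0.222 (91 pairs, common end) and 0.222 (88588 pairs, different chromosomes). Without L12, the library with the most members, they were 0.182, 0.200 and 0.200 in that order. Pairs share libraries and circRNAs, so these values are a description.

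Single pairs ranged widely. Among pairs at a shared site with at least 5 libraries each, the highest index was 0.625, beside a highest of 0.667 in the same host gene without a common site and 0.9 on different chromosomes. It was that of ZDHHC17, a palmitoyltransferase of the Golgi, where rings with a common end were read together in L8, L9, L10, L11 and L12. Of these, L8, L11 and L12 held the most members of all libraries, at 39.4%, 35.7% and 51.0% of members. CASC4, a Golgi membrane protein, followed with 0.615 for rings with a common start, found together in 3 H and 5 L libraries and in 13 libraries in all. In STT3B, a catalytic subunit of the oligosaccharyltransferase, 7 of 12 libraries held both rings (0.583), and the shorter ring had more reads than the longer in 6 of these 7. At the other end, 6 of the 178 such pairs had no library in common. The same held for 0 of 91 pairs in the same host gene without a common site and 3.77% of pairs on different chromosomes. The rings of COPA, a COPI coat subunit, with a common start were read in H7, H11, L8, L10 and L11 for the shorter and in H5, H8, H12, L5 and L12 for the longer. The rings of CARMIL1, a regulator of actin capping, were likewise read in 5 libraries each without a common one, with 328 and 718 reads in total. The pair in LOC102162486 had 1381 reads in 6 libraries and 166 reads in 5 others.

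Detection of each circRNA was compared between L and H with Fisher's exact test, two-sided, adjusted over the whole table. More L than H libraries had reads for 580 members, more H than L for 215, and the numbers were equal for 230. For the 8010 circRNAs in 2 to 11 libraries the like counts were 4349, 1561 and 2100. Of the 435 members in 5 to 11 libraries, the only ones that can reach p below 0.05, 17 did (3.91%), against a background of 4.24% of all 2522 circRNAs in 5 to 11 libraries. Over the whole table the share was 0.765%. In 16 of the 17 the L group had more libraries, 3.68% of 435, beside 4.04% of all circRNAs in 5 to 11 libraries. Without L8, L11 and L12, the libraries with the most circRNAs, 15 members were below 0.05. Of these, 11 had a larger share of the L libraries and 4 a larger share of the H libraries. Among all 8010 circRNAs in 2 to 11 libraries the numbers were 60 and 23. In 5 to 11 of the libraries kept, 4.92% of 264 members and 4.04% of all 1856 circRNAs were below 0.05. A larger share of L libraries was then found for 556 members and a larger share of H libraries for 435, beside 4383 and 3313 of all circRNAs in 2 to 11 libraries. With 9 L and 12 H libraries, equal numbers count as a larger share of L. The share of members below 0.05 was thus under that of all circRNAs of like detection with all libraries. It was above that share without L8, L11 and L12, and neither difference was tested. After Benjamini-Hochberg adjustment 0 members and 0 circRNAs of the table passed (smallest adjusted p = 1).

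The smallest p was that of a ring of 4 exons of ERC1, an organiser of membrane fusion sites, at chr5:68310430-68321820. It was read in 0 of 12 H libraries and in 8 of 12 L libraries, where its reads ran from 0 to 221 with a median of 59.5 (p = 0.00135, adjusted p = 1). The H libraries were all at 0 and the L libraries overlapped them at 0 in 4 cases. The study lists this ring among its most differential circRNAs, higher in L, by limits on P and fold change in edgeR. The most abundant ring at the same acceptor was not a member and carried 65.2% of the hub. A member on an unplaced scaffold was read in 1 H library (H9, 71 reads) and 9 L libraries, at 18 to 314 reads (p = 0.00276, adjusted p = 1).

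The next 4 members by p were each read in more L libraries. CSPP1, a centrosome and spindle pole protein, had a ring of 6 exons read in 2 H libraries (175 and 617 reads) and 9 L libraries (6 to 356 reads; p = 0.0123, adjusted p = 1). Its mean level was 174 ± 423 RPM in H and 297 ± 429 RPM in L (SD, n = 12), within the spread of either group. MPHOSPH9, a centriole protein, had 0 H libraries and 6 L libraries of 37 to 136 reads (p = 0.0137, adjusted p = 1). RB1CC1 had a second ring, of 4 exons, with the same donor as its most abundant one, read in 0 H libraries and 6 L libraries (50 to 182 reads). The longer RB1CC1 ring was read in 5 H libraries and 3 L libraries, and L8 and L12 held both. FNDC3B, a membrane protein with fibronectin type III domains, had 6 L libraries of 14 to 114 reads and 0 H libraries.

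In the other direction, KLHL3, an adaptor that brings WNK kinases to a cullin ubiquitin ligase, had a ring of 4 exons read in 5 H libraries (90 to 520 reads) and 0 L libraries (p = 0.0373, adjusted p = 1). It led its hub. The study lists this ring among its most differential circRNAs, lower in L, by limits on P and fold change in edgeR. It also reports by qPCR that circ-KLHL3 differed between the groups, with the same trend as in sequencing. COL4A3BP, the ceramide transfer protein, had 6 H libraries of 37 to 193 reads and 1 L library (L12, 8 reads), with p = 0.0686 and adjusted p = 1. The other members below 0.05, all with more L libraries, lay in PRMT3, CDK8, SMC6, LOC110256438, NME7, PRPSAP2, COPA, ATAD2B, PHLDB2 and SLC4A8. Leaving out 1 library gave 20 to 37 members below 0.05, since groups of 11 and 12 reach other p-values than groups of 12 and some members in 4 libraries can then pass. Among members in 5 to 11 libraries the share was then 4.37 to 6.16%, and among all circRNAs in 5 to 11 libraries it was 4.32 to 7.28%. The number of members was over 1.5 times the main count without H5 (26), L1 (37), L2 (33), L3 (31), L4 (32), L5 (32), L6 (36), L7 (34), L9 (30), L10 (33) and L11 (26), settings in which 5.12 to 7.28% of all circRNAs in 5 to 11 libraries were below 0.05. In each of these settings 0 circRNAs passed adjustment.

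Reads summed over a hub fill more libraries than single rings, with a median of 13 libraries a hub, and were tested over all starts and ends of the table with the edgeR quasi-likelihood test. The filter on low counts kept 2122 sites, of which 271 were hubs of members. A call required P below 0.05 and either a 1.5-fold rise or a ratio no higher than 0.67. By this rule 0 of the 271 hubs were called, against 0.377% of all sites (8), and no hub had P below 0.05. After adjustment 0 sites passed. DESeq2 called 2 of the hubs, against 0.895% of all sites (19), and 0 after adjustment.

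DTNB, a dystrobrevin of the dystrophin complex, had the smallest P, at a donor (chromosome 3, position 113299665, plus strand). Its sum was 0 to 2402 RPM in H (median 427) and 0 to 315 RPM in L (median 0). Reads were present in 10 H and 5 L libraries, and the groups overlapped over the whole L range. The log2 fold change was -2.47 (SE 1.40, P = 0.0818, adjusted P = 1.00), and DESeq2 gave -2.76 (P = 0.0261, adjusted P = 1.00). A ring of 3 exons led in 10 of 15 libraries, and a member of 4 exons reached 427 reads in H8. RFWD2, a ubiquitin ligase of the COP1 type, was the other hub called by DESeq2, named after its values were seen, with 2854 ± 1093 RPM in H and 1978 ± 794 RPM in L (SD, n = 12). Its edgeR log2 fold change was -0.48 (P = 0.251).

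PRPSAP2 had the next hub, the donor of exon 7 (chromosome 12, position 60366858, minus strand). Its sum was 0 to 4804 RPM in H (median 1233) and 1288 to 4114 RPM in L (median 2175). All 12 L libraries lay above the H median, and the ranges overlapped. The log2 fold change was 0.79 (SE 0.55, P = 0.152, adjusted P = 1.00). Without H4, the highest H library, 0.428% of all 2335 sites were called. This hub was among them, with a log2 fold change of 1.15 (P = 0.0470). Its leader, exons 2 to 7, was read in 22 libraries and carried 87.5% of the hub. The 3 members carried 12.5%, and that of exons 5 to 7 was read in 2 H and 8 L libraries (p = 0.0361, Fisher's exact test, adjusted p = 1). The junctions of 2 PRPSAP2 members show a hub of the donor kind, in which the bases before the junction are shared. Capitals mark the 15 bases before the shared donor, on the minus strand of Sscrofa11.1.
PRPSAP2 chr12:60366858-60373400: TATATTCAGGAAGAGaaacaagagtgcaaa
PRPSAP2 chr12:60366858-60370222: TATATTCAGGAAGAGggacgtcaacaccac

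UBAP2, a ubiquitin-associated protein, supplied the other 2 named sums, an acceptor and a donor that share their leader. The ring of exons 3 to 6 (chr10:32817449-32827084) had 31613 reads and was first in all 24 libraries at both sites, with 77.2% of the acceptor hub and 68.4% of the donor hub. The acceptor sum was 875 to 7363 RPM in H (median 5021) and 2590 to 11452 RPM in L (median 5878). The groups overlapped, with a log2 fold change of 0.39 (SE 0.27, P = 0.156, adjusted P = 1.00). The donor sum had a log2 fold change of 0.36 (SE 0.26, P = 0.170, adjusted P = 1.00). Members were a small part of both, at 0.668% and 1.26%. The member at the acceptor, of 2 exons, was read in H7 and in 4 L libraries at 9 to 88 reads, and the member at the donor starts just upstream of the leader and was read in 8 libraries.

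The quasi-likelihood test of single circRNAs without a filter called 208 members, or 20.3%, against a background of 60.5% of all 17379 circRNAs. Among the 8010 circRNAs in 2 to 11 libraries it called 26.6%. A test that calls most of the table cannot be read member by member. With the filter on low counts 0 members remained to be tested, and DESeq2 called 60 members (5.85%), against 2.61% of all circRNAs (454) and 5.67% of those in 2 to 11 libraries. After adjustment it called 9 members (0.878%), against 0.483% of all circRNAs (84) and 1.05% of those in 2 to 11 libraries.

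The host gene lists are read against the whole, in which 580 of 1025 members and 4349 of the 8010 circRNAs in 2 to 11 libraries were read in more L libraries, and 1.66% and 1.34% were below p = 0.05 by Fisher's exact test. Of 35 chromatin regulators, 13 hosted 64 members, of which 41 were read in more L and 9 in more H libraries, and 1 was below p = 0.05 with more L libraries. CHD2, a chromatin remodeller, had a ring of 2 exons in 6 H libraries (46 to 166 reads) and 5 L libraries (22 to 276 reads). A ring of 3 exons of SMARCC1 was in 6 H and 5 L libraries and highest in L3 (331 reads). EP300, a histone acetyltransferase, had a ring of 4 exons in 5 H libraries (25 to 142 reads) and 6 L libraries (49 to 198 reads). In all 3 the groups overlapped.

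Of 30 genes of the ubiquitin system, 9 hosted 41 members, 22 with more L and 11 with more H libraries, and the KLHL3 ring was the 1 below p = 0.05. RFWD2 (5 members), UBAP2 (9 members) and RNF138 are not on this list. MIB1, a ligase that acts on Notch ligands, had rings of exons 2 to 6 and 3 to 6, each in 5 H and 6 L libraries, with 1783 and 1108 reads. They shared a donor and were read together in H4, H7, L3, L8 and L10. Of 38 cilium and centrosome genes, 5 hosted 16 members, 8 with more L and 3 with more H libraries, and the CSPP1 ring was the 1 below p = 0.05. MPHOSPH9, ALMS1 (5 members) and IQUB (5 members) are not on this list.

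Of 38 vesicle traffic genes, 6 hosted 18 members, 12 with more L and 2 with more H libraries, and 0 were below p = 0.05. COPA, with 5 members of which 1 was below p = 0.05, is not on this list. PICALM and FCHSD2 are not on it either. Besides SEC24A, COG3, a subunit of the Golgi tethering complex, had a ring of 9 exons in 3 H libraries (19 to 411 reads) and 3 L libraries (175 to 232 reads). A ring of 4 exons of COG3 was in 4 H libraries (56 to 344 reads) and 2 L libraries (44 and 71 reads). Of 20 genes known as regulators of back-splicing or splicing, only ESRP1, an epithelial splicing factor, hosted members, 2 rings with a common donor. The ring of 3 exons was in 3 H and 4 L libraries and that of 2 exons in 1 H and 4 L libraries, with no p below 0.05. Over all members the median difference in libraries was 1 more in L.

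Marker genes of the cells that could shed vesicles were looked up as host genes only. Of 15 male germ cell genes, 10 hosted 39 circRNAs, and SYCP1, of the synaptonemal complex, and ZPBP, an acrosomal protein, hosted 5 members, 3 with more L and 2 with more H libraries. Their summed level was 550 ± 573 RPM in H and 679 ± 787 RPM in L (SD, n = 12). Of 5 genes of vesicle proteins, 2 hosted 10 circRNAs, and of 7 epididymal genes, 2 hosted 4. Of 8 accessory gland and prostate genes, 2 hosted 5, and all 3 lists had 0 members. The 6 leukocyte genes hosted 0 circRNAs. The lists differ in size, so their counts were not compared.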

How the data were processed

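The authors deposited circRNA junction read counts for 24 long RNA libraries. Per the study's methods, find_circ and CIRI2 both had to find a circRNA, with at least 2 junction reads, and the submitters' processing notes name cutadapt, FastQC, Bowtie and the build susScr11, which is Sscrofa11.1. Small RNA counts were not used here. Members and lists were chosen with earlier results of these data known. Strand, exons and sequence came from the Sscrofa11.1 genome and NCBI annotation release 106. Circles on unplaced scaffolds were not annotated. A hub is a start or end in at least 4 circRNAs. Means of RPM used library totals as depth. Tests were Fisher's exact test per circRNA over the table, edgeR 4.0.16 (quasi-likelihood, TMM, filterByExpr for sums) and, as an alternative, DESeq2 1.42.0, in R 4.3.3, and a permutation test with 100000 resamples, two-sided, in Python 3.11.15 with SciPy 1.17.1 and NumPy 2.4.6. Tests were first checked on simulated data. Rings named were the 8 hubs with most members, 1 a host gene, the 6 members of highest mean RPM, the 6 of smallest Fisher p and the 2 smallest with more H libraries, the 4 hub sums of smallest P, the 3 highest and 3 lowest pairs by Jaccard index, and up to 3 members of each host gene list (chromatin regulators, ubiquitin system, cilium and centrosome, vesicle traffic, regulators of back-splicing). A ring that this rule names in the ubiquitin list is not reported here. Marker lists were vesicle proteins, male germ cell, epididymal epithelium, accessory gland and prostate epithelium, and leukocyte. Alternatives were other detection limits, thinning to the smallest library, other hub and span limits, filters, scaling, the replicate block and leaving out libraries.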

Additional observations from a re-analysis of the deposited data

How the results depend on the processing

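The per-library differences between L and H (members detected, both shares, top share, hubs with a single circRNA) kept their direction under every alternative run, including thinning and leaving out 1 library. Of members called by Fisher's exact test (17), leaving out 1 library gave 20 to 37. L and H libraries of a number are different boars and share only the number: 6 of 12 same-numbered pairs correlated above 0.1 in their deviations, from -0.30 to 0.62, and 2 of 12 H libraries were closest to their own number. With the replicate block the Fisher count was 9 (exact McNemar test; 2.07% of members and 1.86% of all circRNAs in 5 to 11 libraries), the count of single circRNAs 19 instead of 208 (0.829% of all circRNAs), and hub sums called 3 instead of 0 (2.73% of all sites); the members detected differed by 77.75 as before. The count of single circRNAs was 60 with DESeq2 (2.61% of all circRNAs), 8 of 321 over circRNAs in at least 6 libraries (1.68% of all 2793), and 0 after filterByExpr, which left 0 members to test (0.314% of all circRNAs left). Hub sums called were 2 with DESeq2 (0.895% of all sites), 1 without TMM (0.424%) and 5 of 456 without a filter (55.5% of all sites). Leaving out 1 library gave 0 to 1 hub sums called (0.252 to 0.562% of all sites). Members only, the median share of the leader was 60.4% instead of 55.0%. Among members in 5 to 11 libraries the median Jaccard index was 0.231 for a common start, and 0.222 for a common end, the same host gene and different chromosomes. The cause of these changes was not tested, beyond the fewer circRNAs or libraries that some alternatives hold. Thinning every library to the smallest depth left the mean number of members detected at 161 in H and 238 in L. The table holds no value of 1 read, and members in 4 or fewer libraries cannot reach p below 0.05 with groups of 12.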
